A study of Homo sapiens with 60 samples.

Results

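The 38 genes described here encode the folding machinery of the endoplasmic reticulum (ER), the sensors of the unfolded protein response, and the degradation and export steps that follow folding. They were taken by symbol from a list drawn up with earlier results of these data known, and make up 38 of the 60675 genes in the deposited count table. All 38 were found, and all 38 were among the 16978 genes that passed the filter on low counts. Cells of HT29, a long-established line from a human colorectal adenocarcinoma, received ethanol extracts of single herbs or of herbal formulas for 24 h, and mRNA was sequenced. Polygalae Radix was given at 15.2, 76 and 380 µg/mL and Aucklandiae Radix at 14.8, 74 and 370 µg/mL, with 2 libraries at each dose. Menthae Herba, Saposhnikoviae Radix, Saengmaek-san and Guibi-tang were given at 20, 100 and 500 µg/mL with 3 libraries at each dose, and Soyo-san at the same doses with 2 libraries at each. Okbyeongpung-san had 1 library at each of these doses. These doses are called low, medium and high. The vehicle group, DMSO alone, had 3 libraries, and its concentration is 0.1% in the sample labels but 2% in the series' design text. Per that text, an extract whose 20% inhibitory concentration (IC20) lay under 500 µg/mL was used at that concentration and its dilutions, so the high doses of Aucklandiae Radix and Polygalae Radix were set by an effect on the cells. In bulk RNA, fewer cells of a type and less RNA per cell cannot be told apart.

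Library totals ran between 18690454 and 36796397 counts, apart from the library labelled Saposhnikoviae Radix low replicate 2, which held 17079218. That library stood apart, with 3.33% of its counts on mitochondrial genes against 6.19 to 12.3% in the others. It was left out, so 56 libraries were fitted, and counts that move with it are given with it as well. Of 12 colon epithelial markers, 11 averaged at least 1 CPM (counts per 1000000, scaled for composition), and the list summed to between 7692 and 15400 CPM. Most of that sum came from the keratins KRT8 and KRT18, which averaged 6477 and 4065 CPM. Of 8 fibroblast markers 1 averaged at least 1 CPM, with sums of 1.55 to 3.51 CPM and PDGFRA at 0 throughout. Of 8 blood cell markers 3 did, and nearly all of their 985 to 1637 CPM was LYZ, while PTPRC was at 0 in 32 libraries. Of 6 hepatocyte markers 1 did, SERPINA1, which made up nearly all of a sum of 172 to 377 CPM, and ALB was at 0 in 54 libraries. The vehicle libraries carry a name prefix of their own, so in comparisons with the vehicle the treatment and the library set cannot be told apart. Comparisons of an extract's high dose with its own low dose use no vehicle library and are given first. Nothing in the labels tells whether the replicates of a group came from separate cultures, so the p-values describe the spread among these libraries, and that spread may be technical.

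Proteins that enter the secretory pathway fold in the ER with the help of chaperones, lectins and enzymes that form disulfide bonds. When unfolded proteins build up, BiP, the product of HSPA5, leaves the sensors IRE1, PERK and ATF6, and these switch on genes for chaperones and for ER-associated degradation. IRE1 does this by splicing the mRNA of XBP1 into the form that encodes an active transcription factor, and ATF6 is cut in the Golgi to release one. Secretory epithelia of the gut rely on this system and carry an additional IRE1, IRE1 beta, encoded by ERN2. Gene counts do not show the splicing of XBP1 or the cutting of ATF6.

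The transcription factors of this response are known to bind the ER stress response element (ERSE), CCAAT and CCACG with any 9 bases between them, its variant ERSE-II, ATTGG and CCACG with any 1 base between them, and the unfolded protein response element (UPRE), searched here as TGACGTGG. Windows of 250 bases before to 50 bases after the annotated start, from RefSeq on GRCh38.p14, were searched for these letters on both strands. Windows were found for 32 of the 38 genes, 43 windows in all. Those for CALR, CANX, CRELD2, ERO1B, HSP90B1, HSPA5, PDIA6 and XBP1 held an ERSE. These 8 genes are 25.0% of the 32, against 0.0916% of all 27305 genes with a window. HERPUD1, HYOU1 and SDF2L1 held an ERSE-II, 9.38% of the 32 against 0.0696% of all genes. DNAJC10, HYOU1 and VCP held a UPRE, 9.38% against 0.927%, and the one of HYOU1 overlaps an ERSE-II. The ERSE was first described in promoters of ER chaperone genes, so its frequency there is no independent finding. Stretches of these windows are printed for the chaperones HSPA5, HSP90B1 and HYOU1, for HERPUD1 and SDF2L1, which carry the ERSE-II, and for XBP1, PDIA6 and CRELD2, the genes with a match whose changes with Aucklandiae Radix did not pass the test below. Each is written 5′ to 3′ on the strand of the gene, with the matched fixed bases in capitals; on the opposite strand an ERSE reads as CGTGG followed by ATTGG.
HSPA5, chr9:125241384-125241543, minus strand: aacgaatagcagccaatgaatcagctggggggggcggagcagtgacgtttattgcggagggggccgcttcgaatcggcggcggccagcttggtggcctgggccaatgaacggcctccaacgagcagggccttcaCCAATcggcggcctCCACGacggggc
HSP90B1, chr12:103930211-103930240, plus strand: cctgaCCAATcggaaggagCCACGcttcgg
HSP90B1, chr12:103930316-103930345, plus strand: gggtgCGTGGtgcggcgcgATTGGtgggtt
HYOU1, chr11:119057266-119057405, minus strand: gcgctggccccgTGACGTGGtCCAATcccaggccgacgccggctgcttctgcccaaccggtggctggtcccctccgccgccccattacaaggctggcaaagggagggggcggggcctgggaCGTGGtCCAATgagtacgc
HERPUD1, chr16:56932002-56932061, plus strand: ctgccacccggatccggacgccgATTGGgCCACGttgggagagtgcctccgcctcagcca
SDF2L1, chr22:21642092-21642151, plus strand: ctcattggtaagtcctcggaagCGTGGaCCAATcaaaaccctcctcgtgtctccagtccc
XBP1, chr22:28800585-28800644, minus strand: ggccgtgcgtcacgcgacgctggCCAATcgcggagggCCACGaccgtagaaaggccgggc
PDIA6, chr2:10812836-10812895, minus strand: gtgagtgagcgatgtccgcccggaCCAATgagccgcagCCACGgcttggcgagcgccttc
CRELD2, chr22:49918529-49918588, plus strand: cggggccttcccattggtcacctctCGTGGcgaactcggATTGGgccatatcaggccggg
The window of HSP90B1 held 2 matches to the ERSE in opposite orientations, and both are shown. A match is a description of the letters, not evidence of a bound site.

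**Figure D1:**
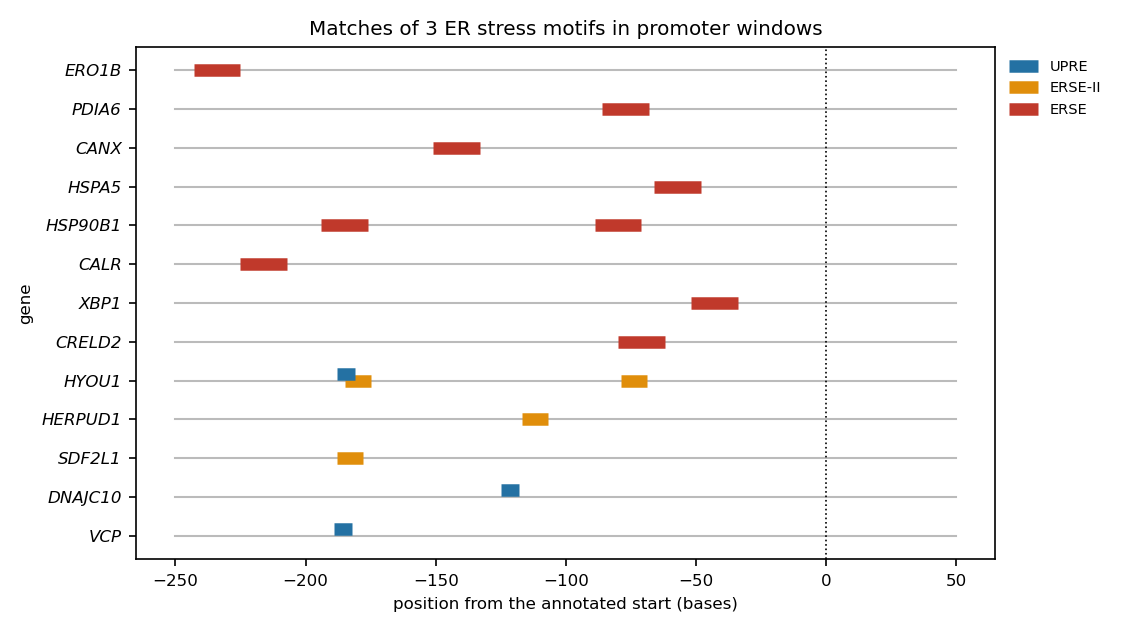
Positions of ERSE, ERSE-II and UPRE matches (coloured blocks) in the promoter windows of the genes with at least 1 match; the x axis is the distance in bases from the annotated start and each line is the 300-base window of 1 gene. As drawn, all matches lie before the start, but the CANX match falls in 3 windows with different starts, of which 1 is drawn, and in another it spans the start, at -9 to 9 bases. HSP90B1 and HYOU1 each hold 2 of an ERSE kind.

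In vehicle-treated cells, with lengths and positions from GENCODE 29 on GRCh38, these genes spanned more than 3 orders of magnitude on the scale of CPM per kilobase of merged exon. CALR, the soluble lectin chaperone calreticulin, had the highest level at 240 ± 23.1 CPM per kb (SD, n = 3). PPIB, the prolyl isomerase cyclophilin B, followed at 208 ± 16.1 and PDIA3, the disulfide isomerase that works with the lectin chaperones, at 179 ± 17 CPM per kb. HSP90B1, the ER form of HSP90 (GRP94), stood at 154 ± 23.5, P4HB, protein disulfide isomerase itself, at 151 ± 7.86, and HSPA5 (ENSG00000044574, chr9:125234853-125241330, minus strand) at 126 ± 8.05 CPM per kb. Between P4HB and HSPA5 lay the disulfide isomerase PDIA4, at 134 ± 8.35, and the lectin chaperone CANX, at 132 ± 2.98 CPM per kb. In this order each gene's mean ± SD range overlapped that of the next, except those of P4HB and PDIA4. The sensors were low, with ATF6 at 7.29 ± 0.473 and ERN1 (ENSG00000178607, chr17:64039142-64130819, minus strand), the ubiquitous IRE1 alpha, at 1.28 ± 0.0526 CPM per kb. ERN2 (ENSG00000134398, chr16:23690326-23713500, minus strand) stood above ERN1, at 3.79 ± 0.278 CPM per kb, and the libraries of the pair did not overlap. DERL3, a member of the derlin family of ER-associated degradation, and ERO1B, an oxidase that recharges protein disulfide isomerase, were lowest, at 0.150 and 0.0877 CPM per kb.

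With the high dose of Aucklandiae Radix, nearly the whole set rose. Of the 38 genes, 33 rose and 2 fell against the extract's own low dose, with 3 not passing the test (quasi-likelihood test of edgeR, p under 0.05 after Benjamini-Hochberg adjustment over all genes tested). The same comparison called 58.7% of all genes, 29.6% upward and 29.2% downward, so the count of falls among these genes is low and the count of rises high beside that background. Their median log2 fold change was 0.66, against -0.02 over all genes. The summed level of the 38 genes was 11374 and 11455 CPM at the high dose, against 7677 and 7731 CPM at the low dose. The share of mitochondrial counts moved with this, at 6.19 and 6.52% at the high dose against 9.82 and 11.0% at the low dose, and its part in the result was not tested. The summed epithelial markers were 14804 to 15011 CPM at the high dose against 12080 to 12630 CPM at the low dose, the blood cell list 1101 to 1173 against 1469 to 1486 CPM, and the hepatocyte list 281 to 290 against 310 to 320 CPM; the part of these lists was not tested either. With Saposhnikoviae Radix low replicate 2 in the fit, 28 of these 35 calls remained. Leaving out each library of the comparison in turn kept 33 of the 35 calls, and those lost at least once were DERL3 and ERO1B.

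**Figure D2:**
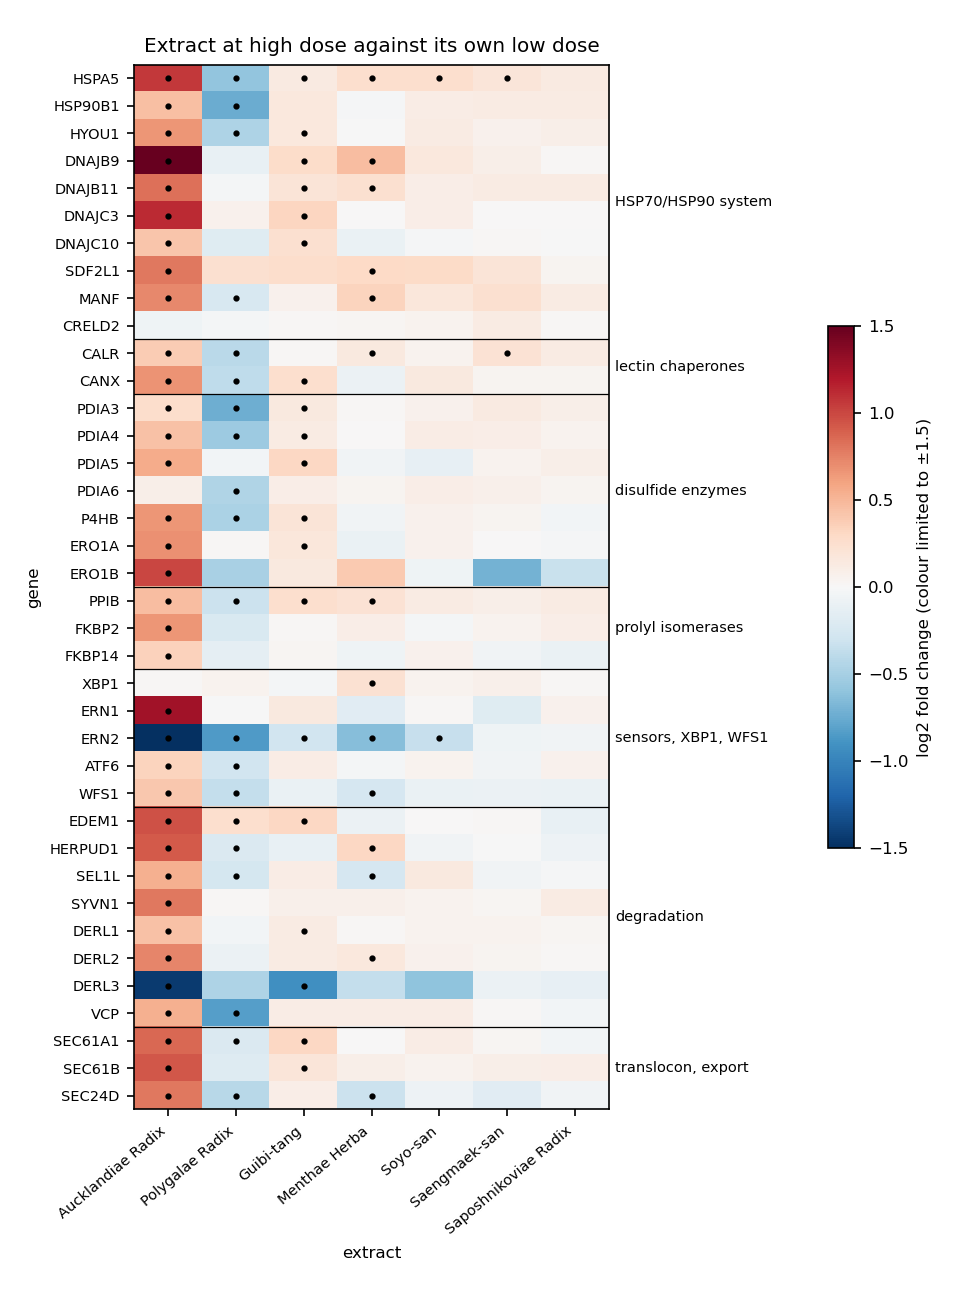
Log2 fold change of each of the 38 genes (down the page, grouped by role) at the high dose of each extract (across) against the same extract's low dose, with the colour limited to ±1.5 and a dot where the edgeR adjusted p is under 0.05. The Aucklandiae Radix column holds 33 rises and 2 falls and the Polygalae Radix column 1 rise and 19 falls; Saposhnikoviae Radix has no dot.

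Among the HSP70 and HSP90 system, 9 of 10 genes rose with the high dose of Aucklandiae Radix. DNAJB9 (ERdj4; ENSG00000128590, chr7:108569568-108574850, plus strand), a co-chaperone of BiP that keeps IRE1 silent, had the largest increase of the set. Its level was 48.1 and 47.6 CPM at the high dose, against 9.88 and 9.78 CPM at the low dose, a log2 fold change of 2.28 ± 0.099 (SE; edgeR adjusted p = 1.99e-23). The medium dose, at 11.1 and 12.5 CPM, lay far nearer the low dose, and the high dose overlapped neither. HSPA5, the ER HSP70 that both folds clients and restrains the sensors, stood at 871 and 872 CPM at the high dose against 409 and 428 CPM at the low dose. That is a log2 fold change of 1.06 ± 0.053 (edgeR adjusted p = 2.03e-21), and the medium dose, at 479 CPM in both libraries, was also above the low dose. DNAJC3, the co-chaperone p58IPK, had 201 and 219 CPM against 95 and 98.7 CPM, a log2 fold change of 1.11 ± 0.083 (edgeR adjusted p = 1.78e-15). HSP90B1 had 930 CPM in both high-dose libraries against 685 and 678 CPM in the low-dose libraries, a log2 fold change of 0.45 ± 0.079 (edgeR adjusted p = 3.96e-06). The groups of HSPA5, DNAJC3 and HSP90B1 did not overlap. For no comparison was the share of all genes with non-overlapping groups counted, so such statements, here and below, describe these libraries only. HYOU1, the large HSP70 relative GRP170, DNAJB11 (ERdj3), the reductase DNAJC10, the secreted protective factor MANF and SDF2L1, a partner of ERdj3, rose by log2 fold changes of 0.42 to 0.82. SDF2L1 had 20.1 and 16.7 CPM at the high dose against 11.1 and 10.2 CPM at the low dose, a log2 fold change of 0.79 ± 0.12 (edgeR adjusted p = 1.70e-07), and this call was lost with Saposhnikoviae Radix low replicate 2 in the fit (log2 fold change 0.78, edgeR adjusted p = 0.202). CRELD2, a secreted ER protein, did not pass the test, with 15.9 and 15.8 CPM against 14.8 and 18.3 CPM.

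Both lectin chaperones rose with this dose. CANX, the membrane lectin calnexin, had 1428 and 1486 CPM at the high dose against 910 and 912 CPM at the low dose, and CALR had 740 and 730 CPM against 558 and 570 CPM. Of 7 disulfide enzymes 6 rose. P4HB had 1142 and 1141 CPM at the high dose against 710 and 737 CPM at the low dose, and ERO1A, the main oxidase of the pair, had 127 and 123 CPM against 77.7 and 76.9 CPM. PDIA6, a further disulfide isomerase, did not pass, with 372 and 350 CPM against 339 CPM in both low-dose libraries. The prolyl isomerases PPIB, FKBP2 and FKBP14 all rose, by log2 fold changes of 0.35 to 0.66.

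The sensors divided. ERN1 had 32.7 and 33.5 CPM at the high dose of Aucklandiae Radix against 12.6 and 15.0 CPM at the low dose, a log2 fold change of 1.26 ± 0.073 (edgeR adjusted p = 3.60e-19). Its gut relative ERN2 went the other way, with 5.37 and 4.77 CPM at the high dose against 19.8 and 19.4 CPM at the low dose, a log2 fold change of -1.94 ± 0.096 (edgeR adjusted p = 1.71e-21). On the per-length scale ERN1 was above ERN2 at the high dose, 3.05 ± 0.0519 against 1.01 ± 0.0839 CPM per kb, and below it at the low dose, 1.27 ± 0.158 against 3.92 ± 0.0598 CPM per kb (SD, n = 2 each). ATF6 and WFS1, an ER membrane protein tied to the ATF6 branch, rose by log2 fold changes of 0.33 and 0.40. XBP1 gave no call at the gene level, with 209 and 201 CPM at the high dose and 201 and 204 CPM at the low dose, and the 2 groups overlapped (log2 fold change 0.01 ± 0.045, edgeR adjusted p = 0.837).

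Of the 8 genes of ER-associated degradation 7 rose. EDEM1, which picks out misfolded glycoproteins, had 62.6 and 67.8 CPM at the high dose of Aucklandiae Radix against 32.4 and 34.8 CPM at the low dose, a log2 fold change of 0.95 ± 0.075 (edgeR adjusted p = 7.18e-15). HERPUD1, a scaffold of the membrane ligase complex, had 58.5 and 59.2 CPM against 29.7 and 32.5 CPM, a log2 fold change of 0.92 ± 0.075 (edgeR adjusted p = 2.32e-14). Neither gene's groups overlapped. SYVN1, the ubiquitin ligase HRD1, its partner SEL1L, the derlins DERL1 and DERL2, and VCP, the ATPase that pulls clients out of the membrane, rose by log2 fold changes of 0.44 to 0.79. DERL3 fell, but at levels of 0.256 and 0.217 CPM against 0.854 and 0.453 CPM. All 3 genes of translocation and export rose: SEC61A1 and SEC61B, subunits of the channel into the ER, by log2 fold changes of 0.87 and 0.94, and SEC24D, a coat protein of vesicles that leave it, by 0.80.

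**Figure D3:**
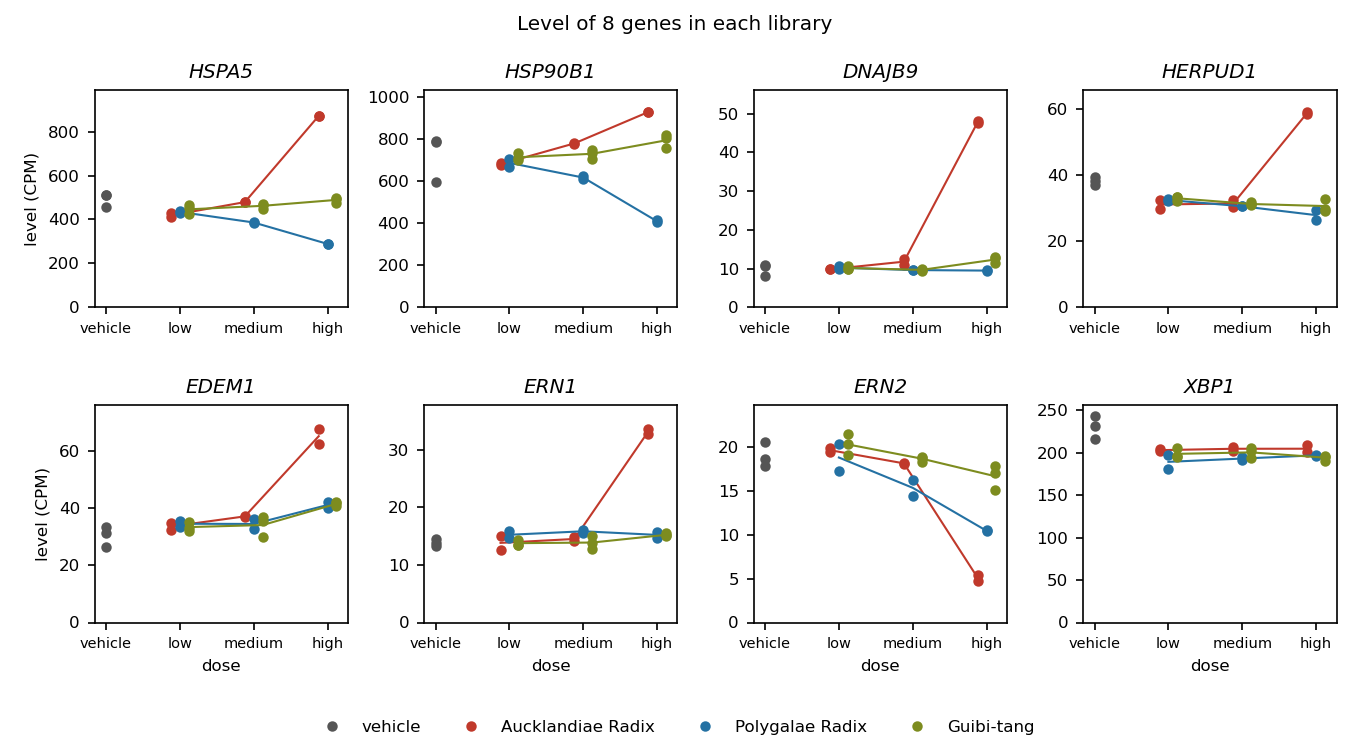
Level in CPM (y axis, linear, a separate scale in each panel) of 8 genes in every library of the vehicle group and of Aucklandiae Radix, Polygalae Radix and Guibi-tang at low, medium and high dose (x axis); points are libraries and lines join group means. DNAJB9 reaches 48.1 and 47.6 CPM at the high dose of Aucklandiae Radix, ERN2 drops to 5.37 and 4.77 CPM there, and HSPA5 moves in opposite directions with Aucklandiae Radix and Polygalae Radix.

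Across doses, 31 of the 38 group means rose stepwise over low, medium and high Aucklandiae Radix and 2 fell stepwise. The share of all genes with such an order was not counted, and the order was not tested. The medium dose against the low dose gave 5 calls, all upward, for HSPA5, CANX, P4HB, PPIB and SEC61A1, against 2.6% of all genes called, and none of the 5 held when any 1 library of the comparison was left out. Against the vehicle, the high dose gave 33 rises and 3 falls, with 62% of all genes called, 31% in each direction. DNAJB9 stood at 48.1 and 47.6 CPM against 8.02, 11.0 and 10.8 CPM in the vehicle libraries, a log2 fold change of 2.29 ± 0.086 (edgeR adjusted p = 7.18e-26). The third fall against the vehicle was XBP1, at 209 and 201 CPM against 216, 232 and 243 CPM, a log2 fold change of -0.17 ± 0.041 (edgeR adjusted p = 3.90e-04).

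Whether the wider pathway moved too was read from 101 other genes grouped into 6 lists, 100 of which were tested. With the high dose of Aucklandiae Radix against the low dose, 73 of the 100 rose, 10 fell and 17 did not pass. Over all genes, 29.6% rose and 29.2% fell in this comparison. In the PERK branch, the arm that slows translation and drives ATF4, 7 of 10 rose and 1 fell. DDIT3, the stress factor CHOP, rose by a log2 fold change of 2.78 ± 0.14 and PPP1R15A (GADD34), which reverses the translation block, by 1.64 ± 0.13, while the mRNA of ATF4 fell by 0.30 on the log2 scale. Of 24 genes of translocation and glycosylation 21 rose, led by SEC11C, a signal peptidase subunit, at 1.68 ± 0.078 and SEC61G, the small channel subunit, at 1.10 ± 0.083. Among other genes of degradation 17 of 20 rose, including the EDEM1 relative EDEM2 at 1.02 ± 0.073, and among genes of ER to Golgi traffic 14 of 19 rose and none fell, with the coat protein SEC23B at 0.85 ± 0.038. Other folding genes were more mixed, with 11 of 20 up and 3 down. The list of ATF6 processing and ER-bound factors split, 3 up and 4 down of 7 tested: CREB3 rose by 1.26 ± 0.066 and CREB3L2 by 1.18 ± 0.084, and CREB3L1, a related ER-bound factor, fell by 1.17 on the log2 scale. Each of these named genes passed the edgeR test, the largest adjusted p among them being 1.04e-04 for ATF4.

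Polygalae Radix at its high dose moved the set in the other direction. Against its own low dose 19 of the 38 genes fell and 1 rose, with 18 not passing. This comparison called 29.4% of all genes, 13.3% upward and 16% downward. The median log2 fold change of the 38 genes was -0.24, against -0.01 over all genes, and their summed level was 5675 and 5686 CPM at the high dose against 7604 and 7635 CPM at the low dose. The summed epithelial markers moved in the same libraries, at 7692 to 8574 CPM at the high dose against 12396 to 12494 CPM at the low dose, as did the blood cell list, at 985 to 998 against 1461 to 1491 CPM, and the hepatocyte list, at 172 to 184 against 321 to 340 CPM. Their part in the result was not tested. With Saposhnikoviae Radix low replicate 2 in the fit the count was 11, all falls, with 1463 of all 17092 genes called. Leaving out each library of the comparison in turn kept 15 of the 20 calls.

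Among chaperones, HSPA5 had 288 and 290 CPM at the high dose of Polygalae Radix against 440 and 428 CPM at the low dose, a log2 fold change of -0.59 ± 0.053 (edgeR adjusted p = 2.89e-12). HSP90B1 had 405 and 414 CPM against 709 and 667 CPM, a log2 fold change of -0.75 ± 0.080 (edgeR adjusted p = 3.18e-10). The groups of both genes were apart. HYOU1, MANF, CALR and CANX fell as well, by 0.24 to 0.46 on the log2 scale, while the co-chaperones DNAJB11, DNAJC3 and DNAJC10, at -0.03, 0.06 and -0.18, did not pass. DNAJB9 did not pass either and had 9.60 and 9.39 CPM at the high dose and 10.7 and 9.82 CPM at the low dose, a log2 fold change of -0.11 ± 0.12 (edgeR adjusted p = 0.537). SDF2L1 had 12.3 and 10.1 CPM at the high dose and 9.66 and 9.21 CPM at the low dose, which did not pass (edgeR adjusted p = 0.167). Of the disulfide enzymes PDIA3, PDIA4, PDIA6 and P4HB fell. PDIA3 had 408 and 414 CPM at the high dose against 676 and 687 CPM at the low dose, a log2 fold change of -0.73 ± 0.052.

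ERN2 fell here too, with 10.5 and 10.4 CPM at the high dose of Polygalae Radix against 20.3 and 17.2 CPM at the low dose, a log2 fold change of -0.85 ± 0.089 (edgeR adjusted p = 2.27e-10). ERN1 stood at 15.7 and 14.7 CPM and at 14.6 and 15.8 CPM, and XBP1 at 196 and 197 CPM and at 181 and 197 CPM; both overlapped between doses and gave no call. VCP had 257 and 244 CPM at the high dose against 448 and 440 CPM at the low dose, a log2 fold change of -0.83 ± 0.056 (edgeR adjusted p = 7.52e-16). EDEM1 was the only gene of the 38 that rose, with 40.2 and 42.0 CPM against 33.5 and 35.6 CPM, a log2 fold change of 0.25 ± 0.078 (edgeR adjusted p = 0.0117). That call was lost without low replicate 2 (edgeR adjusted p = 0.111) and without high replicate 3 (edgeR adjusted p = 0.0813). HERPUD1 fell by 0.22 on the log2 scale, to 26.4 and 29.4 CPM against 32.9 and 32.1 CPM (edgeR adjusted p = 0.0351), and its call was lost without high replicate 2 and without either low library, at adjusted p of 0.0951 to 0.307.

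At the medium dose of Polygalae Radix 4 genes were below the low dose, HSPA5, PDIA6, ERN2 and VCP, against 4.95% of all genes called, and at most 1 of the 38 was called when a library was left out. Against the vehicle the high dose gave 23 falls and 2 rises, with 36.5% of all genes called, 16.8% upward and 19.6% downward. The wider pathway at high against low dose gave 11 rises and 42 falls among 100 genes, beside 13.3% and 16% of all genes. The traffic list fell in 13 of 19 genes with no rise, including the cargo receptor LMAN1 at -0.62 ± 0.088. The PERK branch had 4 rises and 3 falls of 10, with PPP1R15A at 0.67 ± 0.14 and DDIT3 at 0.56 ± 0.17 among the rises (edgeR adjusted p = 1.50e-04 and 7.98e-03).

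**Figure D4:**
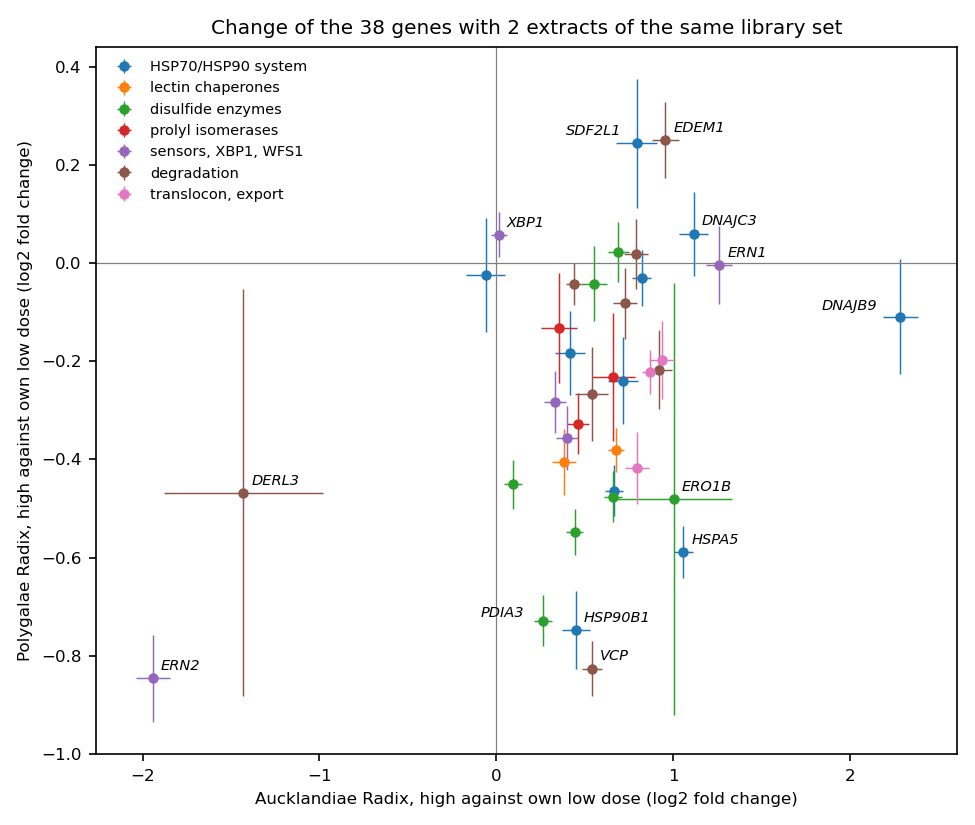
Log2 fold change at high against own low dose with Aucklandiae Radix (x axis) and Polygalae Radix (y axis); each point is 1 of the 38 genes, coloured by role, and bars are 1 SE in each direction. Most points lie in the lower right, ERN2 is down on both axes, and EDEM1 is up on both.

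The library names of these 2 extracts share a set number, and their high-minus-low changes were compared in 1 test. The change differed for 35 of the 38 genes, against 46.6% of all genes in either direction, and was lower with Polygalae Radix for 34 of the 35. Of the 38 genes, 17 rose with Aucklandiae Radix and fell with Polygalae Radix, among them HSPA5, HSP90B1, HYOU1, CALR, CANX, PDIA3, P4HB, ATF6, HERPUD1, VCP and SEC61A1. A further 15 rose with Aucklandiae Radix and gave no call with Polygalae Radix. Over all genes, 29.6% rose with Aucklandiae Radix and 16% fell with Polygalae Radix, and the share that did both was not counted. Among the 17, the falls of MANF, ATF6, HERPUD1 and SEL1L with Polygalae Radix were lost when certain single libraries were left out. With Saposhnikoviae Radix low replicate 2 in the fit, those of HYOU1, MANF, CALR, CANX, PPIB, HERPUD1, SEL1L and SEC24D were lost. In that fit the rises of HYOU1, PDIA3, PPIB and SEL1L with Aucklandiae Radix were lost as well. For HSPA5 the change with Polygalae Radix was 1.65 ± 0.074 log2 units below that with Aucklandiae Radix (edgeR adjusted p = 2.61e-22), and for DNAJB9 it was 2.39 ± 0.15 below (edgeR adjusted p = 4.21e-17). ERN2 was the exception in direction, with a fall that was smaller with Polygalae Radix by 1.10 ± 0.13 log2 units (edgeR adjusted p = 3.13e-09). CRELD2, XBP1 and DERL3, at 0.04, 0.05 and 0.96 log2 units, did not pass. The doses were 370 and 380 µg/mL, which are close but not equal. With Saposhnikoviae Radix low replicate 2 in the fit 26 of the 35 calls remained, and 33 remained whichever library of the 4 groups was left out.

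Genes with and without an ERSE or ERSE-II letter match were set side by side for these 2 extracts. With Aucklandiae Radix 8 of 11 genes with a match rose and 3 did not pass, PDIA6, CRELD2 and XBP1, whose windows are printed above. All 21 genes that had a window without such a match rose. The medians of the log2 fold changes were 0.67 with a match and 0.69 without. With Polygalae Radix 7 of 11 genes with a match fell, with a median of -0.41, and 9 of 21 without one fell and 1 rose, with a median of -0.20. The difference between the classes was not tested.

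Guibi-tang, a formula of several herbs, gave a smaller upward shift. At high against low dose 17 genes rose and 2 fell, with 17.9% of all genes called, 8.84% upward and 9.08% downward. The median log2 fold change of the 38 genes was 0.13, and the summed level was 8579 to 8764 CPM at the high dose against 7727 to 7883 CPM at the low dose. The mitochondrial share moved with this, at 7.74 to 8.47% at the high dose against 8.82 to 11.5% at the low dose, as did the hepatocyte list, at 237 to 249 against 314 to 337 CPM, and their part in the result was not tested. Without each library in turn 12 of the 19 calls were kept, and the ones lost at least once were HSPA5, DNAJB9, DNAJC10, PDIA4, ERO1A, DERL3 and SEC61B. With Saposhnikoviae Radix low replicate 2 in the fit 2 calls remained, PDIA5 and SEC61A1.

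DNAJC3 had 119, 120 and 116 CPM at the high dose of Guibi-tang against 94.0, 101 and 90.7 CPM at the low dose, a log2 fold change of 0.32 ± 0.069 (edgeR adjusted p = 6.14e-04). EDEM1 had 40.6, 41.8 and 42.2 CPM against 31.9, 35.0 and 33.2 CPM, a log2 fold change of 0.32 ± 0.063 (edgeR adjusted p = 2.04e-04). PDIA5, a further disulfide isomerase, had 22.9, 21.5 and 20.5 CPM against 16.0, 18.4 and 17.9 CPM, a log2 fold change of 0.31 ± 0.061 (edgeR adjusted p = 1.56e-04). The libraries of these 3 genes did not overlap between doses. HSPA5 rose by a smaller step, with 495, 497 and 475 CPM against 450, 423 and 465 CPM, a log2 fold change of 0.13 ± 0.043 (edgeR adjusted p = 0.0233), and 0.10 (adjusted p = 0.170) without low replicate 2. ERN2 fell, with 15.1, 17 and 17.8 CPM against 21.4, 20.3 and 19.1 CPM, a log2 fold change of -0.28 ± 0.067 (edgeR adjusted p = 1.57e-03). HSP90B1, SDF2L1, XBP1 and HERPUD1, at 0.15, 0.26, -0.03 and -0.11, did not pass. Against the vehicle 12 genes were up and 5 down, with 29.4% of all genes called, 14.7% in each direction. Among the 100 other pathway genes 32 rose and 6 fell at high against low dose, beside 8.84% and 9.08% of all genes. Translocation and glycosylation had 14 rises of 24 genes and no fall. SEC11C rose by a log2 fold change of 0.46 ± 0.067 and STT3A, a catalytic subunit of oligosaccharyltransferase, by 0.33 ± 0.039, while CREB3L1 fell by 0.62 on the log2 scale (edgeR adjusted p of 1.34e-06, 1.48e-08 and 3.97e-08).

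Menthae Herba changed fewer of these genes and in both directions. At high against low dose 10 rose and 4 fell, with 23.5% of all genes called, 12% upward and 11.6% downward, and the median of the 38 was 0.01. The summed epithelial markers were 13399 to 14283 CPM at the high dose against 12715 to 13084 CPM at the low dose and the hepatocyte list 223 to 234 against 292 to 320 CPM, and their part in the result was not tested. DNAJB9 had 15.9, 13.1 and 11.8 CPM at the high dose against 10.1, 10.2 and 9.33 CPM at the low dose, a log2 fold change of 0.46 ± 0.089 (edgeR adjusted p = 9.97e-05). HERPUD1 had 40.9, 39.5 and 35.3 CPM against 31.1, 32.2 and 30.3 CPM, a log2 fold change of 0.31 ± 0.062 (edgeR adjusted p = 2.14e-04). MANF had 43.0, 45.7 and 42.9 CPM against 37.6, 34.7 and 31.9 CPM, a log2 fold change of 0.34 ± 0.068 (edgeR adjusted p = 1.89e-04). None of these 3 overlapped between doses.

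XBP1 also rose, with 229, 223 and 222 CPM at the high dose of Menthae Herba against 191, 192 and 195 CPM at the low dose, a log2 fold change of 0.22 ± 0.037 (edgeR adjusted p = 1.04e-05). It was the only 1 of the 7 extracts whose high against low dose comparison called XBP1. HSPA5 had 551, 535 and 494 CPM against 463, 430 and 430 CPM, a log2 fold change of 0.26 ± 0.043 (edgeR adjusted p = 1.11e-05). SDF2L1 rose by 0.30 ± 0.10, but its libraries overlapped between doses and the call was lost without high replicate 2 or 3 and without low replicate 2 or 3. ERN2 fell again, with 12.0, 12.9 and 12.8 CPM against 18.8, 20.9 and 19.3 CPM, a log2 fold change of -0.64 ± 0.068 (edgeR adjusted p = 7.47e-10). SEC24D, WFS1 and SEL1L fell by 0.32, 0.26 and 0.25 on the log2 scale. Against the vehicle, DNAJB9 was up by 0.47 ± 0.087 (edgeR adjusted p = 5.50e-05), but HSPA5, HERPUD1, MANF and XBP1 were not called, and of the 38 genes 3 rose and 6 fell, with 28.2% of all genes called, 13.7% upward and 14.5% downward. With Saposhnikoviae Radix low replicate 2 in the fit 4 of the 14 calls at high against low dose remained, HSPA5, DNAJB11, ERN2 and HERPUD1. In the wider pathway 16 of 100 genes rose and 15 fell at high against low dose, near the 12% and 11.6% of all genes. The PERK branch had 5 rises of 10 genes and no fall, with DDIT3 at 0.48 ± 0.13 and ATF4 at 0.30 ± 0.052 (edgeR adjusted p = 4.54e-03 and 2.01e-05).

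The change of Menthae Herba differed from that of Saposhnikoviae Radix, an extract with the same set number and the same doses, for 3 genes, against 3.59% of all genes. The difference in high minus low was 0.20 ± 0.056 for XBP1, 0.38 ± 0.095 for HERPUD1 and -0.59 ± 0.10 log2 units for ERN2 (edgeR adjusted p = 0.0273, 0.0132 and 1.58e-04). Without Saposhnikoviae Radix high replicate 3, or low replicate 3, the ERN2 call alone remained. The calls of XBP1 and ERN2 were lost with Saposhnikoviae Radix low replicate 2 in the fit, and that of HERPUD1 remained.

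The other extracts moved few of the genes. Soyo-san at high against low dose gave 1 rise and 1 fall, with 2.49% of all genes called. HSPA5 had 512 and 515 CPM against 431 and 429 CPM, a log2 fold change of 0.26 ± 0.052 (edgeR adjusted p = 2.17e-03). ERN2 had 16.2 and 17 CPM against 21.2 and 21 CPM, a log2 fold change of -0.34 ± 0.080 (edgeR adjusted p = 9.04e-03), and this call was lost without high replicate 1 or either low library. Saengmaek-san gave 2 rises and no fall, with 0.854% of all genes called: HSPA5, with 496, 480 and 479 CPM against 439, 438 and 404 CPM (log2 fold change 0.18 ± 0.043, edgeR adjusted p = 0.0202), and CALR, with 637, 619 and 646 CPM against 571, 555 and 516 CPM (0.21 ± 0.055, edgeR adjusted p = 0.0450). Leaving out 1 library at a time left 0 or 1 of these 2 calls. Saposhnikoviae Radix gave no call among the 38 genes, with 0.289% of all genes called, in edgeR and in DESeq2, and 3 had an unadjusted edgeR p under 0.05. With low replicate 2 in the fit 15 were called, 6 up and 9 down, while 4745 of all 17092 genes tested in that fit were called. The high-dose libraries of HSPA5 stood at 479, 475 and 474 CPM against 430 and 439 CPM in the low-dose libraries, which do not overlap (log2 fold change 0.13 ± 0.048, edgeR adjusted p = 0.383). Okbyeongpung-san, with 1 library per dose and no test, had HSPA5 at 504 CPM at the high dose and 433 CPM at the low dose. None of the 38 genes differed by more than 1.3-fold between those libraries, while 10% of all genes did. These shares were not matched for level, and genes with few counts pass such a fold more readily, so they are not directly comparable.

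Saengmaek-san and Guibi-tang share a set number and doses, and their changes differed for 6 genes, all lower with Saengmaek-san, against 7.21% of all genes. These were SEC61A1 at -0.28 ± 0.052, CANX at -0.22 ± 0.052, ERN1 at -0.33 ± 0.092, SEC24D at -0.27 ± 0.082, EDEM1 at -0.30 ± 0.090 and DNAJC3 at -0.31 ± 0.098 log2 units, with edgeR adjusted p of 1.54e-04 to 0.0419. All 6 calls were lost with Saposhnikoviae Radix low replicate 2 in the fit, and those of CANX, ERN1 and SEC24D without the filter on low counts. SEC61A1 and CANX kept the call whichever library of the 4 groups was left out, and without Guibi-tang high replicate 2, Guibi-tang low replicate 3 or Saengmaek-san high replicate 3 the count was 3.

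**Figure D5:**
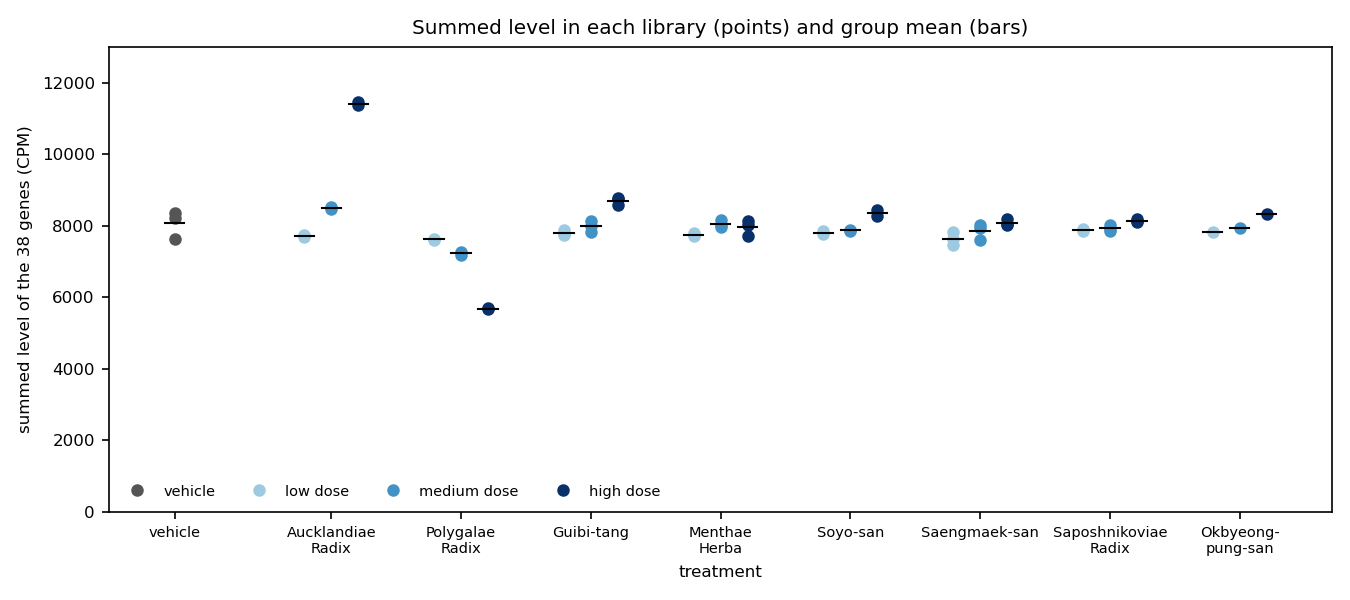
Summed level of the 38 genes in CPM (y axis, linear, starting at 0) in every library of the vehicle and of each extract at low, medium and high dose (x axis); points are libraries and bars group means. The high dose of Aucklandiae Radix lies at 11374 and 11455 CPM, above all other libraries shown, and the high dose of Polygalae Radix at 5675 and 5686 CPM, below them.

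Read across extracts, 2 genes were called most often at high against low dose. HSPA5 passed in 6 of the 7 extracts tested, upward in 5 and downward with Polygalae Radix. Against the vehicle, the high dose called HSPA5 up in 1 extract and down in 1, while the low dose was lower in all 7. The HSPA5 calls with Guibi-tang and Saengmaek-san were lost when certain single libraries were left out. ERN2 passed in 5, always downward: Aucklandiae Radix, Polygalae Radix, Menthae Herba, Soyo-san and Guibi-tang. The ERN2 call with Soyo-san was lost without high replicate 1 or either low library. With Saposhnikoviae Radix low replicate 2 in the fit, Guibi-tang and Soyo-san lost the calls of both genes and Saengmaek-san that of HSPA5. The share of all genes called in as many extracts was not counted. CRELD2 was called in none, by edgeR at high against low dose.

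Against the vehicle a different set of genes stood out at the low doses. XBP1, HERPUD1, HSPA5 and MANF were lower than the vehicle at the low dose of all 7 extracts, by log2 fold changes of -0.28 to -0.18, -0.30 to -0.21, -0.24 to -0.15 and -0.46 to -0.32. The 7 comparisons share the same 3 vehicle libraries, so they are not separate observations. These genes were named because they were called in all 7, and the share of all genes called lower in all 7 was not counted. At the medium dose XBP1 and HERPUD1 were called lower in all 7 extracts, MANF in 6 and HSPA5 in 3. Without vehicle replicate 3 the low-dose calls were 6 of 7 for XBP1, 5 for MANF and 3 each for HSPA5 and HERPUD1, and with Saposhnikoviae Radix low replicate 2 in the fit at most 1 of 7 for each gene, with the MANF changes then spread over -0.40 to 0.20. The vehicle libraries had 216, 232 and 243 CPM of XBP1, and 37.2, 39.4 and 38.3 CPM of HERPUD1.

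Against the vehicle, most of the 38 genes that were called at a low dose were lower than in the vehicle libraries, but the counts moved with single libraries. Polygalae Radix gave 10 calls at the low dose, with 9.98% of all genes called, and 15 at the medium dose, with 10.2%. Without vehicle replicate 3, or without either low-dose library, the count at its low dose was 2, and without medium replicate 3 that at its medium dose was 6. Aucklandiae Radix gave 6 and 10, with 4.97% and 13.6% of all genes called, and 0 to 15 and 4 to 11 when 1 library was left out. Menthae Herba gave 10 and 7, with 9.45% and 10.1%, and 3 to 16 and 3 to 10 when 1 library was left out. Guibi-tang gave 5 and 5, with 6.05% and 11%, and 2 to 13 and 4 to 15 when 1 library was left out. For the other 3 extracts the low, medium and high doses gave 12, 4 and 5 calls with Saposhnikoviae Radix (11.5%, 3.69% and 10.2% of all genes), 17, 13 and 10 with Saengmaek-san (18%, 11.4% and 12%), and 7, 8 and 14 with Soyo-san (9.8%, 8.55% and 17.7%). Leaving out 1 library gave 1 to 15, 3 to 11 and 4 to 9 with Saposhnikoviae Radix, 6 to 18, 1 to 15 and 3 to 10 with Saengmaek-san, and 1 to 13, 1 to 13 and 5 to 13 with Soyo-san. The counts at the low and medium doses were 0 with Saposhnikoviae Radix low replicate 2 in the fit, apart from 2 at the medium dose of Polygalae Radix and 14 at the low dose of Saposhnikoviae Radix. Of all 17092 genes in that fit, these 2 comparisons called 137 and 4834. At medium against low dose neither edgeR nor DESeq2 called any of the 38 genes with Menthae Herba or Guibi-tang, with 0.0294% and 0.118% of all genes called by edgeR, or with Saposhnikoviae Radix, Saengmaek-san or Soyo-san, where edgeR called 0% of all genes. The genes with an unadjusted edgeR p under 0.05 numbered 3, 2, 6, 3 and 1 in that order.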

How the data were processed

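Transcription was measured by RNA-seq in 60 libraries. Per the submitters' processing notes, the authors used FastQC 0.11.9, Trim Galore 0.6.5, STAR 2.7.3a and RSEM 1.3.3, and deposited expected counts per gene; the annotation release and the strand setting were not stated there or in the labels. Reads of genes that overlap on opposite strands may therefore be mixed. The deposited values were rounded to whole counts, since 10.04% were not whole. Symbols, lengths and positions came from GENCODE 29 (GRCh38), and promoter windows from RefSeq (GRCh38.p14).

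Libraries were grouped by their labels. In R 4.3.3, edgeR 4.0.16 kept genes by filterByExpr, scaled by TMM and fitted 16978 genes in 56 libraries with 34 residual degrees of freedom. The quasi-likelihood test was adjusted by Benjamini-Hochberg over all genes in each of 38 comparisons, and a call is an adjusted p under 0.05. The SE of a log2 fold change was taken as that change over the square root of its F value, without sign. CPM are counts per 1000000 of the TMM-scaled total. The outlying library and the 3 single Okbyeongpung-san libraries were left out of the fit. Replicates differed by more than sampling noise, with a chi-square per degree of freedom of 2.09 to 22.98 over 46 pairs. Data were simulated with both doses equal except for 66 or 67 genes at each fold, picked at any level from 16978. The real comparisons called 58.7% of all genes with Aucklandiae Radix and 17.9% with Guibi-tang, so recovery there may differ. On simulated data for the Aucklandiae Radix comparison of high with low dose, 46.3, 55.2 and 71.2% of genes changed 1.3, 1.5 and 2-fold were recovered, with 8 false calls. For Guibi-tang they were 58.2, 58.2 and 83.3%, with 4 false calls.

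Members and lists were chosen with earlier results of these data known. Values in every library are given for HSPA5, HSP90B1, DNAJB9, XBP1, HERPUD1 and SDF2L1, and for the 3 members with the largest called rise and fall in each comparison of high with low dose at a mean of at least 5 CPM. From each other list at most 2 called genes per direction were named. Other genes are named to complete a role group or a count and were chosen after their values were seen. Alternatives were median-ratio (RLE) scaling, no filter, DESeq2 1.42.0, replicate blocks, 57 libraries with the outlying library included, and leaving out each library in turn. The number of libraries limits the precision, and genes at the lowest levels, such as DERL3 and ERO1B, also rest on few counts.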

Additional observations from a re-analysis of the deposited data

Results flagged for a closer look

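For 3 pairs of extracts whose library names share a set number, the high-minus-low change was tested for a difference between the extracts in edgeR, and the results below passed that test. Polygalae Radix differed from Aucklandiae Radix for 35 of the 38 genes, with 46.6% of all genes called. Among the chaperones and their partners, the change with Polygalae Radix minus that with Aucklandiae Radix was -1.65 log2 units for HSPA5, -1.20 for HSP90B1, -2.39 for DNAJB9, -1.06 for DNAJC3, -0.55 for SDF2L1 and -0.96 for MANF. For the lectin CALR it was -0.79 and for the disulfide isomerase PDIA5 -0.59. The sensor ERN1 had -1.26, WFS1 -0.76 and ERN2 1.10, the only positive difference named here for this pair. The degradation genes EDEM1, HERPUD1 and VCP had -0.70, -1.14 and -1.37, and the vesicle coat gene SEC24D -1.21. Of the genes named here for this pair, SDF2L1 lost the call when certain single libraries were left out.

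Menthae Herba differed from Saposhnikoviae Radix for 3 genes, with differences of 0.20 for XBP1, 0.38 for HERPUD1 and -0.59 for ERN2, and 3.59% of all genes were called. XBP1 and HERPUD1 lost the call when certain single libraries were left out. Saengmaek-san differed from Guibi-tang for 6 genes, with 7.21% of all genes called, among them DNAJC3 at -0.31, ERN1 at -0.33, EDEM1 at -0.30 and SEC24D at -0.27 log2 units, each of which lost the call without at least 1 of the libraries compared.

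Every group held 1 to 3 libraries, so no group was large enough to be searched for a single outlying value.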

How the results depend on the processing

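With Saposhnikoviae Radix low replicate 2 in the shared fit, the number of the 38 genes called against the vehicle at low, medium and high dose was 0, 2 and 13 with Polygalae Radix, 0, 0 and 2 with Menthae Herba, and 0, 0 and 3 with Guibi-tang. It was 0 at every dose for Saengmaek-san and Soyo-san, 0 at the low and medium dose of Aucklandiae Radix, and 0 and 1 at the medium and high dose of Saposhnikoviae Radix. At high against low dose it was 11 with Polygalae Radix, 4 with Menthae Herba, 15 for Saposhnikoviae Radix, 2 for Guibi-tang and 0 for Saengmaek-san and Soyo-san. At medium against low dose it was 0 for Polygalae Radix and Aucklandiae Radix and 16 for Saposhnikoviae Radix. Between extracts it was 5 for Menthae Herba against Saposhnikoviae Radix and 0 for Saengmaek-san against Guibi-tang. Of all 17092 genes in that fit, 4745 were called at high and 4399 at medium against low dose of Saposhnikoviae Radix. For Menthae Herba against Saposhnikoviae Radix 2262 of all genes were called.

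Without the filter the count was 0, 1 and 1 at medium against low dose of Polygalae Radix, Aucklandiae Radix and Saposhnikoviae Radix, 8 at the medium dose against the vehicle for Saengmaek-san and for Guibi-tang, and 3 between these 2 extracts. DESeq2 gave 10 for the low dose of Aucklandiae Radix and 8 each for the low and medium dose of Guibi-tang against the vehicle. RLE scaling gave 1 for Saengmaek-san at high against low dose. The title number as replicate block gave 8 for the medium dose of Guibi-tang against the vehicle and moved no other count by more than 1.5 times; it ended the call of DERL3 with Guibi-tang at high against low dose. The set and number of the library name as replicate block moved no count by that much and ended the DNAJC3 call between Saengmaek-san and Guibi-tang. Deviations of libraries with the same number correlated at -0.086 to 0.165, and those with different numbers at -0.191 to 0.151. The deviations were taken from means of 2 or 3 libraries, which ties these values to each other. The check therefore cannot tell whether such libraries share more than a number.

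Leaving out 1 library at a time gave, against the vehicle at low and medium dose, 2 to 15 and 6 to 18 calls for Polygalae Radix, 0 to 15 and 4 to 11 for Aucklandiae Radix, 3 to 16 and 3 to 10 for Menthae Herba, and 2 to 13 and 4 to 15 for Guibi-tang. At low, medium and high dose it gave 1 to 15, 3 to 11 and 4 to 9 for Saposhnikoviae Radix, 6 to 18, 1 to 15 and 3 to 10 for Saengmaek-san, and 1 to 13, 1 to 13 and 5 to 13 for Soyo-san. At high against low dose it gave 0 to 1 for Saengmaek-san and 1 to 2 for Soyo-san. At medium against low dose it gave 0 to 1 for Polygalae Radix and 0 for Aucklandiae Radix. Between extracts it gave 1 to 4 for Menthae Herba against Saposhnikoviae Radix and 3 to 7 for Saengmaek-san against Guibi-tang. High against low dose held between 34 and 35 calls for Aucklandiae Radix, 16 and 18 for Polygalae Radix, 14 and 20 for Guibi-tang and 10 and 15 for Menthae Herba.

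Among the named genes at high against low dose, no change that passed the test turned its sign. With the outlying library in the fit, SDF2L1 and MANF passed in the other direction with Saposhnikoviae Radix, at -1.83 and -0.53 log2 units against 0.04 and 0.13 without it. In 44 further cases a change that passed in neither fit changed sign. The cause of the calls lost with the outlying library in the fit, and of the other losses, was not tested.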
